A study of Danio rerio with 6 samples.

Results

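The transcripts described here are those of 10 interferon-stimulated genes in zebrafish liver: ifih1, dhx58, stat1a, stat1b, stat2, irf7, isg15, mxa, mxb and rsad2. They were chosen by gene symbol, as sensors, transcription factors and effectors of the interferon response, out of 30954 named genes in a deposited table of RNA sequencing counts. All 10 are in the table, and 9 of them are among the 12889 genes that passed a filter on low counts and were tested. The gene that did not pass was mxb. The table holds 6 liver libraries, 3 from wild-type (WT) zebrafish and 3 from zebrafish in which scd was knocked out with CRISPR-Cas9. The question of the comparison is what the loss of scd, the gene of stearoyl-CoA desaturase, does to liver transcripts. All the fish were kept in water at 28 °C. The strain, the mutant allele, age, sex and whether a library came from 1 fish or from several are absent from the labels used here, so p-values measure only the spread between these libraries, which may be in part technical.

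Interferons are secreted proteins by which vertebrate cells warn each other of viral infection. In the cell that first meets a virus, cytosolic receptors such as that encoded by ifih1 bind foreign RNA and start interferon production. On the receiving cell, interferon receptors act through JAK kinases on STAT transcription factors. Together with interferon regulatory factors these switch on a shared set of genes, the interferon-stimulated genes, whose products limit viral growth. The sensors and STAT factors are themselves interferon-stimulated, so the pathway amplifies itself.

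Named counts per library ran from 22525340 to 25852954. Levels are given as counts per 1e6 counts scaled with TMM (trimmed mean of M-values) factors, written CPM, and a single count was worth between 0.0143 and 0.0613 CPM. Levels of different genes are not compared, since CPM takes no account of transcript length. The libraries differed in more than genotype. Yolk precursor (vitellogenin) transcripts took 44.1% to 57.3% of the counts in 5 libraries and 0.0433% in mutant replicate 3, whose TMM factor was 2.97 against 0.632 to 1.07 in the others. Oocyte marker transcripts summed to 285, 348 and 446 CPM across WT replicates 1 and 2 and mutant replicate 1, and to no more than 3.37 CPM elsewhere, the lowest being 0.228 CPM. Erythrocyte markers summed to 2273 CPM across mutant replicate 3 and to 189 to 366 CPM elsewhere. All 13 hepatocyte markers were detected in every library and summed to between 42906 and 97646 CPM. The scd transcript itself ran from 18.1 to 431 CPM across WT and from 56.7 to 693 CPM across mutant libraries, so that it does not check the labels (log2 fold change 0.84 ± 1.44, SE, edgeR adjusted p = 0.786).

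Apart from ifih1, the interferon-stimulated genes varied within a genotype over a wider range than separated the genotypes. In WT they were low in replicates 1 and 2, some of them at 0 to 19 counts, and high in replicate 3. In the mutant group, replicates 1 and 2 lay between these WT levels for all but ifih1, stat1a and irf7, and replicate 3 was higher than both for all but ifih1 and irf7. None of the 9 genes tested was called between genotypes over all 6 libraries (edgeR quasi-likelihood test, Benjamini-Hochberg adjusted p between 0.208 and 0.958), where 0.241% of all genes tested were. The SE of the log2 fold change reached 2.01, for rsad2, so large differences could have been missed. One of the 9, ifih1, had an unadjusted p under 0.05, and it was higher in the mutant libraries, against 10.8% of all genes that were higher at that threshold. Limma-voom also called 0 of the 9, where it called 28 of the 12889 genes tested. DESeq2's Wald test called 0 as well, where it called 8.42% of all genes, and it gave no p for 4 of the 9.

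**Figure D1:**
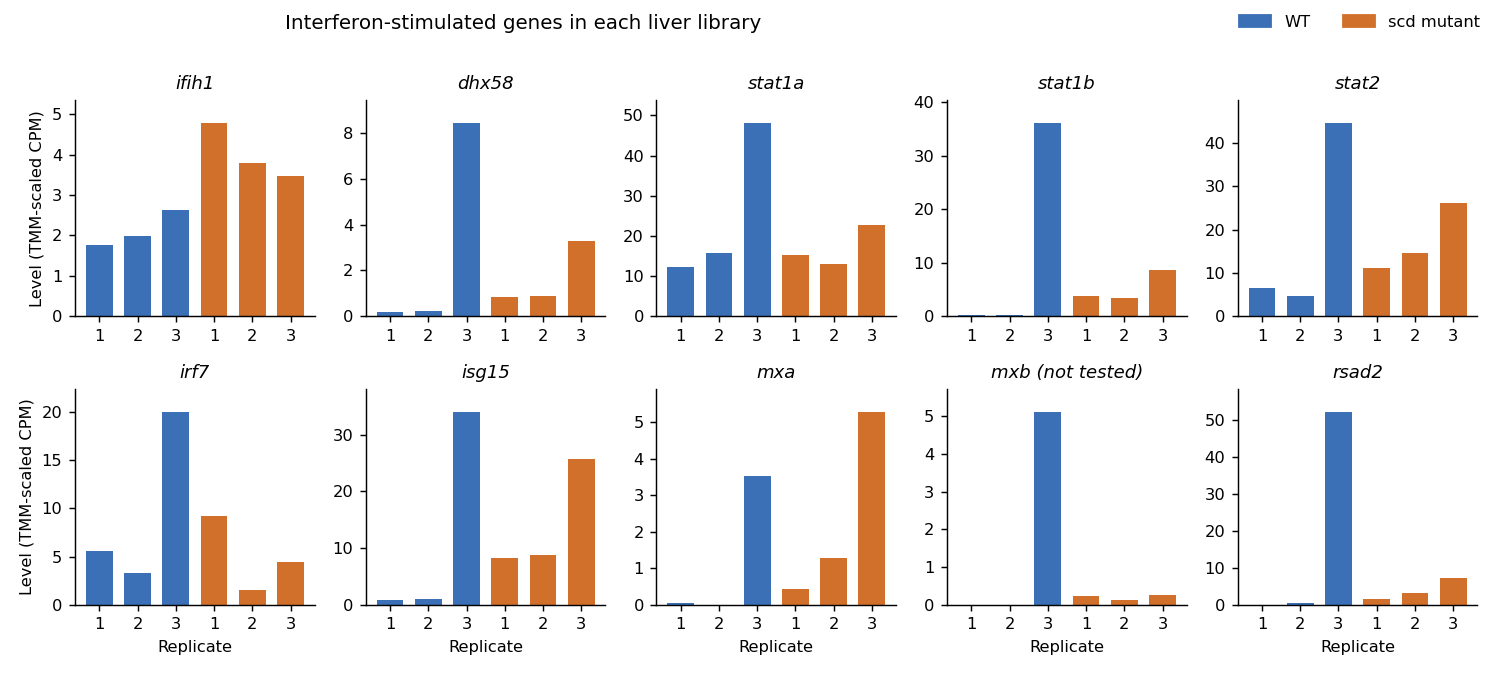
Level of each of the 10 genes (vertical axis, TMM-scaled CPM, each panel with its own scale from 0) in WT (blue) and scd mutant (orange) libraries, replicates 1 to 3 in each, 1 bar per library. WT replicate 3 is the highest bar for dhx58, stat1a, stat1b, stat2, irf7, isg15, mxb and rsad2, and the mutant bars of ifih1 all stand above the WT ones.

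Both genes of RNA sensors were detected in every library. The level of ifih1, which encodes the long double-stranded RNA receptor MDA5, was 1.78, 1.99 and 2.64 CPM across WT replicates 1 to 3 and 4.78, 3.79 and 3.48 CPM across mutant replicates 1 to 3. All 3 mutant libraries lay above all 3 WT libraries, and ifih1 was the gene of the list for which the groups did not overlap, where they did not overlap for 27.8% of all genes tested. Its mean was 2.14 ± 0.451 CPM across WT and 4.02 ± 0.680 CPM in the mutant group (SD, n = 3 each). The log2 fold change of 0.91 ± 0.33 (SE) did not pass the threshold over all genes (edgeR, unadjusted p = 0.0266, adjusted p = 0.208). Its sign was positive in all 16 alternative fits, with a log2 fold change from 0.74 to 1.78. The 1.78 came with total counts, where the median of all genes tested was itself 0.98. The 16 fits reuse the same libraries and are not independent of each other. Since the groups did not overlap, leaving libraries out could hardly turn the sign.

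The level of dhx58, which encodes LGP2, a relative of MDA5 that modulates its signalling, was 0.192, 0.210 and 8.43 CPM across WT replicates 1 to 3. In mutant replicates 1 to 3 it was 0.858, 0.864 and 3.27 CPM. Both replicate 3 libraries stood above the others, and every mutant value fell inside the WT range. WT replicate 3 was 42.0 times the mean of WT replicates 1 and 2, on a total of 8 counts in those 2 libraries. Between genotypes the log2 fold change was -0.79 ± 1.43 (SE, edgeR adjusted p = 0.802).

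The STAT genes encode the factors that carry the signal from the interferon receptor to the nucleus, and zebrafish have the related pair stat1a and stat1b. The level of stat1b was 0.288, 0.314 and 36.0 CPM across WT and 3.74, 3.37 and 8.70 CPM across mutant replicates 1 to 3. WT replicate 3 was 119.6 times the mean of the other WT libraries, which held 6 counts each. Mutant replicate 3 was 2.45 times the mean of the other mutant libraries. Mutant replicates 1 and 2 averaged 11.8 times the level of WT replicates 1 and 2. Over all 6 libraries the groups overlapped and the log2 fold change was -1.20 ± 1.74 (SE, edgeR adjusted p = 0.748).

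Its copy stat1a varied much less. It stood at 12.2, 15.9 and 48.1 CPM across WT and 15.3, 13.0 and 22.8 CPM across mutant replicates 1 to 3. Again replicate 3 was the highest in each group, by 3.42 times in WT and 1.61 times in the mutant group, but mutant replicates 1 and 2 averaged 1.01 times WT replicates 1 and 2. Whether reads that fit both copies were counted is not stated in the labels used here, so the split between them is uncertain. The log2 fold change of stat1a was -0.57 ± 0.54 (SE, edgeR adjusted p = 0.588).

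The level of stat2, whose product is part of the complex that binds interferon-stimulated genes, was 6.58, 4.77 and 44.6 CPM across WT and 11.2, 14.6 and 26.2 CPM across mutant replicates 1 to 3. The 2 lowest values were those of WT replicates 1 and 2 and the highest that of WT replicate 3, with the mutant libraries between them. The genotype means were 18.6 ± 22.5 and 17.4 ± 7.85 CPM (SD, n = 3 each), and the log2 fold change was -0.10 ± 0.87 (SE, edgeR adjusted p = 0.958).

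The factor encoded by irf7 drives interferon gene transcription and feeds the response forward. Its transcript had 5.62, 3.30 and 20.0 CPM across WT and 9.19, 1.52 and 4.41 CPM across mutant replicates 1 to 3. Here replicate 3 was the highest library in WT but not in the mutant group, where replicate 1 was. With total counts in place of TMM scaling, mutant replicate 3 became the highest of its group, at 13.0 counts per 1e6 against 5.80 and 1.62. That scaling also raised the median of all genes tested in this library. The log2 fold change was -0.94 ± 0.85 (SE, edgeR adjusted p = 0.571).

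Among the effectors, isg15 encodes a ubiquitin-like protein that is attached to other proteins during the response. It had 16, 19 and 606 counts in WT and 136, 215 and 1804 counts in mutant replicates 1 to 3, or 0.768, 0.995 and 34.1 CPM against 8.33, 8.85 and 25.7 CPM. The level in WT replicate 3 was 38.6 times the mean of WT replicates 1 and 2. Mutant replicates 1 and 2 were close to each other and averaged 9.74 times WT replicates 1 and 2. The means of the genotypes were 11.9 ± 19.2 and 14.3 ± 9.90 CPM (SD, n = 3 each), and the log2 fold change was 0.27 ± 1.47 (SE, edgeR adjusted p = 0.939).

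The gene rsad2 encodes viperin, a radical SAM enzyme that makes a chain-terminating nucleotide which stops viral RNA synthesis. Its level was 0.0480, 0.524 and 52.3 CPM across WT replicates 1 to 3, which is a single count in replicate 1 and 930 counts in replicate 3. In mutant replicates 1 to 3 it was 1.65, 3.17 and 7.36 CPM. The mutant libraries lay between the low WT pair and WT replicate 3, and WT replicate 3 was 182.8 times the mean of the other WT libraries. Over all 6 libraries the log2 fold change was -2.098 ± 2.01 (SE, edgeR adjusted p = 0.601).

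The Mx genes encode dynamin-like GTPases that block viral replication. The counts of mxa were 1, 0 and 63 in WT and 7, 31 and 371 in mutant replicates 1 to 3, and its levels were 0.0480, 0 and 3.54 CPM against 0.429, 1.28 and 5.29 CPM. It was the 1 gene besides ifih1 for which mutant replicate 3 stood above WT replicate 3, where 51% of all genes tested did so. WT replicate 3 was 141-fold above WT replicates 1 and 2 combined, with a 95% counting interval of 24.5 to 5670.2, and mutant replicates 1 and 2 were 37.3-fold above them, with an interval of 6.31 to 1513.2. These intervals cover counting error only. The log2 fold change of mxa over all 6 libraries was 1.003 ± 1.69 (SE, edgeR adjusted p = 0.785).

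Its copy mxb had 0, 0 and 91 counts in WT and 4, 3 and 19 counts in mutant replicates 1 to 3. Against a floor of 3 counts over WT replicates 1 and 2, WT replicate 3 was at least 68.1-fold higher. In mutant replicate 3, mxb stood at 0.271 CPM, close to the 0.245 CPM of mutant replicate 1, while mxa was higher there than in either other mutant library. The 2 genes lie next to each other in the RefSeq annotation of assembly GRCz12tu, a later build than the GRCz11 of the counts, and reads they share could have been split between them.

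The replicate 3 libraries were then set beside the rest, from which they also differed in other ways. Oocyte markers summed to 3.37 CPM in WT replicate 3, against 285 and 348 CPM in WT replicates 1 and 2. Mutant replicate 3 held 0.0433% vitellogenin, and its erythrocyte markers summed to 2273 CPM, against 287 and 189 CPM in the other mutant libraries. The part of these differences in what follows was not tested. Replicate 3 was the highest library of its group in both genotypes for 7 of the 9 genes tested, the exceptions being ifih1 and irf7, while 17.5% of all genes tested had this pattern. With total counts it held for 9 of 9, against 21.4% of all genes. That scaling raised most genes in mutant replicate 3. As log2 deviations from each gene's mean, the median of all genes was 1.57 there, against -0.60 and 0.09 in mutant replicates 1 and 2. The 9 of 9 therefore adds no support to the pattern. WT replicate 3 was at least 3 times the mean of WT replicates 1 and 2 for 8 of 9 genes, against 4.45% of all genes. The median ratio was 38.6, or 24.5 with mxa at the lower end of its interval, and 0.974 over all genes. For mutant replicate 3 such a ratio was reached by 3 of 9 genes, dhx58, mxa and rsad2, against 6.74% of all genes, and the median ratio was 2.45 against 0.974 over all genes. WT replicate 3 stood above mutant replicate 3 for 7 of the 9 genes under TMM.

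How high mutant replicate 3 stood depended on the scaling. With total counts, isg15 was at 75.8 counts per 1e6 in mutant replicate 3 and at 24.4 in WT replicate 3, the reverse of their order under TMM. Centred on each gene's mean over the 6 libraries, the median of the 9 genes on the log2 scale under TMM was -2.07, -1.96 and 2.38 in WT and -0.25, 0.26 and 1.59 in mutant replicates 1 to 3. The median of all genes tested stayed between 0.00 and 0.05. With total counts the 9 genes stood at 3.08 in mutant replicate 3 and 1.75 in WT replicate 3, where the median of all genes was 1.57 and -0.47.

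Like most of these genes, most macrophage markers were highest in replicate 3 of both groups. The 16 macrophage markers summed to 156, 162 and 566 CPM across WT and 157, 77.4 and 302 CPM across mutant replicates 1 to 3. Of the sum in WT replicate 3, cd74a made 275 CPM and cd74b 163 CPM. In replicate 3 of both groups 15 of the 16 were highest. Of the 14 that passed the filter 13 were, against 17.5% of all genes tested. No macrophage marker was at 0 in 5 libraries, and 1 was at 0 in WT replicate 2. Bile duct markers also had their highest sums in replicate 3 of each group. They summed to 371, 505 and 593 CPM across WT and 345, 382 and 1132 CPM across mutant libraries, and 3 of the 5 were highest there in both. Lymphocyte markers summed to 1.49, 2.67 and 5.73 CPM across WT and 1.35, 0.576 and 3.51 CPM across mutant libraries, with 3 to 9 of 15 at 0 in a library. Neutrophil markers summed to 6.19, 5.19 and 5.06 CPM across WT and 1.65, 0.782 and 7.53 CPM across mutant libraries, and 4 of the 8 were highest in replicate 3 of both groups. The largest contributor in WT was ncf1, a subunit gene of the phagocyte oxidase, at 5.47, 3.93 and 2.305 CPM. The part of these cells in the interferon levels was not tested. In bulk liver, fewer cells of a type and less RNA per cell cannot be told apart.

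**Figure D2:**
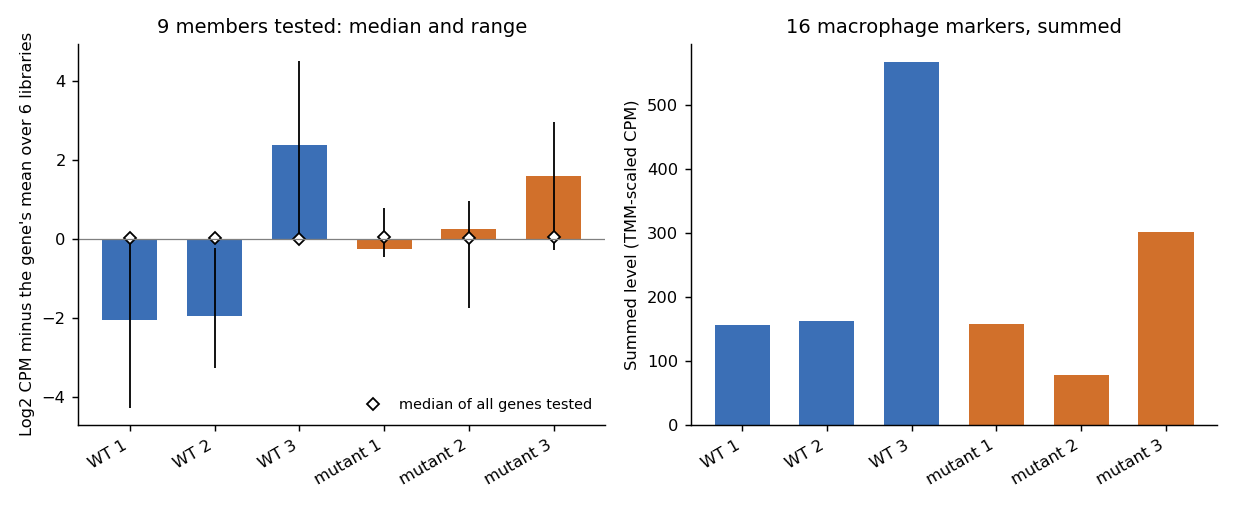
Left, log2 CPM of the 9 genes tested minus each gene's mean over the 6 libraries: bars are the median over the genes, vertical lines their range and open diamonds the median of all genes tested. Right, summed TMM-scaled CPM of 16 macrophage markers. Both panels are highest in WT replicate 3 and next in mutant replicate 3, an order that cd74a and cd74b set in the right panel.

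Replicates 1 and 2 showed a further difference. For 7 of the 9 genes both mutant libraries lay above both WT libraries, the exceptions being stat1a and irf7, against 26.2% of all genes tested. With total counts the count was also 7 of 9, against 15.2% of all genes. The median ratio of the mutant to the WT mean in these libraries was 4.29, and 1.005 over all genes. Of the 9, dhx58, mxa, rsad2 and stat1b had at most 10 counts in either of these WT libraries and passed the filter through their levels elsewhere. Macrophage marker sums in the same libraries were 157 and 77.4 CPM for the mutants against 156 and 162 CPM for WT, sums to which the antigen presentation gene cd74a contributed most. The level of cd74a was 80.6 and 32.9 CPM in mutant against 94.7 and 98.2 CPM in WT replicates 1 and 2. For 6 of the 14 macrophage markers tested, both mutant libraries lay above both WT libraries, with a median ratio of 1.09. Among them, the scavenger receptor gene marco had 7.05 and 7.20 CPM against 3.41 and 3.77 CPM, and spi1b, the gene of a myeloid transcription factor, had 1.04 and 1.19 CPM against 0.384 and 0.472 CPM. Other markers of the list went the other way. The level of mpeg1.1 was 2.88 and 2.72 CPM in mutant against 6.00 and 7.125 CPM in WT replicates 1 and 2. That of csf1ra was 3.86 and 0.946 CPM against 5.95 and 5.08 CPM. The part of the macrophage markers in the difference was not tested.

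Tested without WT replicate 3, 0 of 9 genes were called (edgeR, adjusted p from 0.119 to 0.923), where 0.0361% of all genes were. At an unadjusted p under 0.05, 7 of the 9 were higher in the mutant libraries, against 9.04% of all genes, namely dhx58, ifih1, isg15, mxa, rsad2, stat1b and stat2. Of these, dhx58, mxa, rsad2 and stat1b had at most 10 counts in either WT library left. They passed the filter through the mutant libraries, where they were higher, so the count of 7 is not independent of the filter. Nor is it independent of leaving out WT replicate 3, the library in which most of the 9 genes were highest. Log2 fold changes were 4.10 ± 0.64 for stat1b, 3.997 ± 0.68 for isg15, 3.82 ± 1.07 for rsad2, 3.03 ± 0.89 for dhx58 and 1.60 ± 0.46 for stat2 (SE). The fitted 6.34 of mxa is set against 1 WT count and depends on the prior count. Of the WT libraries left, both carried oocyte transcripts, and of the mutant libraries 1 did, so that the oocyte share and genotype were partly confounded there.

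Without both replicate 3 libraries, 2 libraries a group remained and 8 genes passed the filter. One of them, isg15, was called higher in the mutant libraries (log2 fold change 3.27 ± 0.36, SE, edgeR adjusted p = 0.0476), where 0.346% of all genes were called. Over all 6 libraries its adjusted p was 0.939 (edgeR), and over the alternatives it ran up to 0.963. Most of these genes were highest in the libraries left out, so the results here are not independent of that choice. Both WT libraries left carried oocyte transcripts, and 1 of the mutant libraries did. The gene stat1b had a log2 fold change of 3.53 ± 0.46 (edgeR adjusted p = 0.0678). At an unadjusted p under 0.05, 6 of the 8 were higher, against 8.41% of all genes, while stat1a stood at 0.00 ± 0.29 and irf7 at 0.23 ± 0.89. Again dhx58, rsad2 and stat1b passed the filter through the mutant libraries, where they were higher. Without mutant replicate 3 alone, 0 of the 9 genes were called, where 0.161% of all genes were, and 8 of 9 log2 fold changes were negative, with WT replicate 3 kept.

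**Figure D3:**
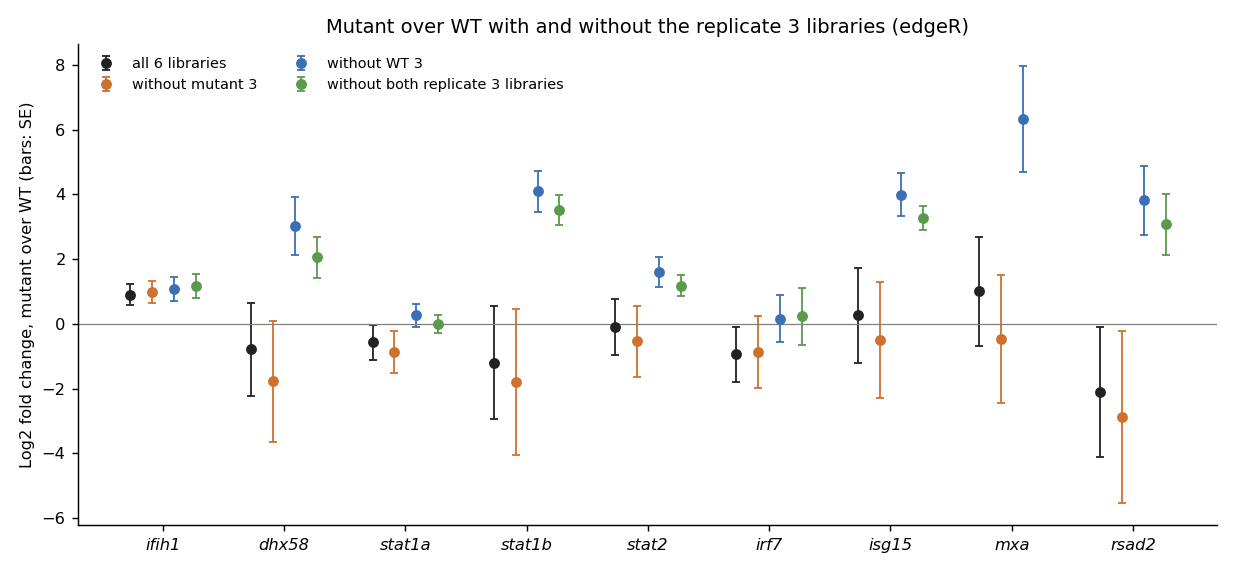
Log2 fold change of mutant over WT with its SE (edgeR) for each of the 9 genes tested, in all 6 libraries and without 1 or both replicate 3 libraries; mxa did not pass the filter without both. Leaving out WT replicate 3 moves stat1b from -1.20 to 4.10 and isg15 from 0.27 to 3.997, while ifih1 stays between 0.91 and 1.17 in these 4 fits.

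The rest of the pathway was read from lists of ligands, receptors, sensors, regulatory factors, inhibitors and effectors, with 90 of 112 symbols in the table and 64 tested. None of the 64 was called over all 6 libraries (edgeR), where 0.241% of all genes were. At an unadjusted p under 0.05, 5 were higher and 2 lower, against 10.8% and 8.29% of all genes. DESeq2's Wald test called 1 higher, tlr3, and 1 lower, gbp3, where it called 8.42% of all genes.

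The interferon genes themselves were almost silent. None of the 6 ligands passed the filter. The antiviral interferon gene ifnphi1 had 4, 4 and 7 counts in WT and 7, 7 and 37 counts in mutant replicates 1 to 3, and interferon gamma, ifng1, had 0, 0 and 2 counts against 0, 0 and 1. No ifnphi4 count was seen in any library. A difference in these ligand transcripts was not detectable at this depth.

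Of the receptor and kinase genes, jak1, which serves both types of interferon receptor, was at 30.7, 23.2 and 28.4 CPM across WT and 34.3, 35.6 and 46.6 CPM across mutant replicates 1 to 3 (log2 fold change 0.50 ± 0.26, edgeR adjusted p = 0.334). Chosen after their values were seen, the kinase gene tyk2 ran from 1.29 to 5.31 CPM and the receptor gene crfb1 from 1.47 to 4.89 CPM over the 6 libraries. None of the 6 genes of this list had a WT replicate 3 level of 3 times WT replicates 1 and 2, near the 4.45% of all genes tested that did. Such a level was reached by 0 of 8 sensors and adaptors, 1 of 8 inhibitors and 5 of 8 regulatory factors. It was reached by 12 of 25 effectors and 7 of 9 antigen-processing genes.

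Of the sensors and adaptors, tlr3, the endosomal receptor for double-stranded RNA, had levels of 1.82, 1.78 and 2.75 CPM across WT and 3.19, 6.05 and 8.16 CPM across mutant replicates 1 to 3. Like ifih1 it did not overlap between the groups (log2 fold change 1.46 ± 0.42, edgeR adjusted p = 0.147), which held for 27.8% of all genes tested. In this list the adaptor gene ticam1 did not overlap either. The adaptor mavs, on which MDA5 signals, stayed between 10.2 and 16.3 CPM in all 6 libraries (log2 fold change 0.05 ± 0.26, edgeR adjusted p = 0.936).

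Among the regulatory factors, irf5 had 1.39, 0.891 and 1.41 CPM across WT and 1.96, 2.96 and 3.68 CPM across mutant libraries (log2 fold change 1.23 ± 0.41, edgeR adjusted p = 0.185). The attenuating factor gene irf2 ran from 5.23 to 12.9 CPM across WT and from 2.76 to 8.58 CPM across mutant libraries (-0.55 ± 0.50, adjusted p = 0.573). The list's irf9, whose product is part of the same complex as that of stat2, was chosen after its values were seen. It stood at 0.816, 1.26 and 6.35 CPM across WT and 2.57, 3.58 and 6.65 CPM across mutant replicates 1 to 3. WT replicates 1 and 2 were its lowest libraries, but a gene chosen in this way adds no support to the pattern.

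Of the genes of inhibitors, the phosphatase gene ptpn6 had 1.39, 2.305 and 3.48 CPM across WT and 4.23, 5.02 and 6.66 CPM across mutant libraries (log2 fold change 1.15 ± 0.41, edgeR adjusted p = 0.200). Another phosphatase gene, ptpn2b, stayed between 11.47 and 15.5 CPM (0.18 ± 0.24, adjusted p = 0.705).

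In the effector list 17 of the 25 genes tested were highest in replicate 3 of both groups, against 17.5% of all genes. For 13 of the 25, mutant replicates 1 and 2 both lay above WT replicates 1 and 2, against 26.2% of all genes. Among the 13, ifit8, ifit14, cmpk2 and helz2 had at most 4 counts in either of these WT libraries. They passed the filter through their levels elsewhere, so the count of 13 is not independent of the filter. The guanylate-binding protein gene gbp3 went the other way, at 10.8, 15.9 and 14.3 CPM across WT and 1.29, 3.87 and 2.02 CPM across mutant libraries (log2 fold change -2.51 ± 0.44, edgeR adjusted p = 0.0695). It passed the threshold with DESeq2 (adjusted p = 2.1e-05) and in edgeR with no filter (adjusted p = 0.0162). The ribonuclease gene rnasel3 ranged from 262 to 659 CPM across WT and from 251 to 664 CPM across mutant libraries (0.06 ± 0.53, edgeR adjusted p = 0.963). It is counted among the 17, but its place among interferon effectors was not checked. Chosen after their values were seen, ifit14 and ifit8, of the family of interferon-induced proteins with tetratricopeptide repeats, were nearly absent from WT replicates 1 and 2. Their counts were 0, 0 and 134 in WT against 5, 19 and 309 in mutant replicates 1 to 3 for ifit14, and 1, 1 and 202 against 8, 29 and 279 for ifit8.

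Antigen-processing genes induced by interferon gamma showed the replicate 3 pattern in 8 of 9 cases, against 17.5% of all genes tested. The class I light chain gene b2m was at 114, 164 and 554 CPM across WT and 186, 141 and 292 CPM across mutant replicates 1 to 3 (log2 fold change -0.43 ± 0.65, edgeR adjusted p = 0.753). The exception to the pattern was tapbp.1, a tapasin gene of the peptide-loading complex, at 1.01, 2.096 and 5.002 CPM across WT and 11.09, 6.17 and 8.215 CPM across mutant libraries (1.65 ± 0.58, adjusted p = 0.196). In this list the groups did not overlap for tapbp.1, higher in the mutant libraries, and for tap1, lower in them. They did not overlap for 27.8% of all genes tested.

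**Figure D4:**
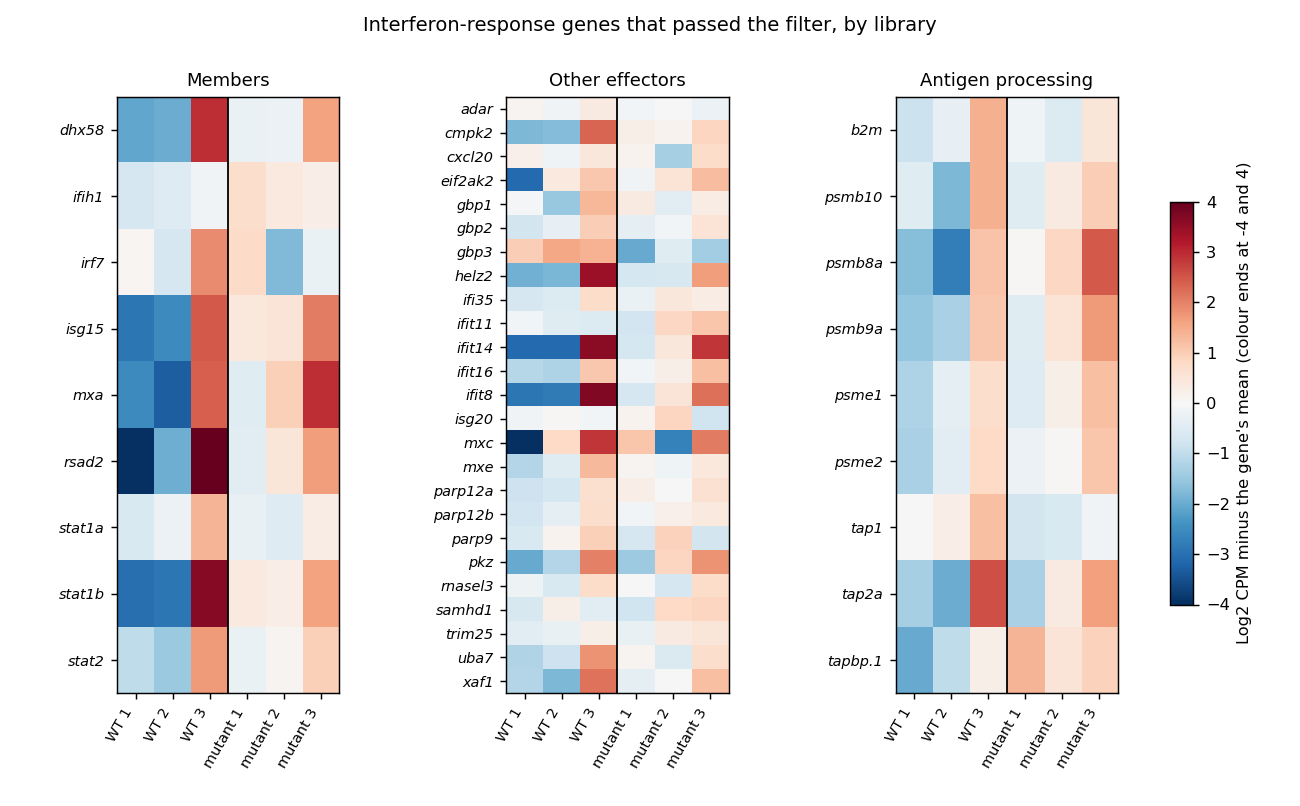
Log2 TMM-scaled CPM minus each gene's mean over the 6 libraries (red above, blue below) for the 9 genes tested, 25 other effectors and 9 antigen-processing genes, with a black line between WT and mutant libraries. The WT replicate 3 column is the reddest for stat1b, dhx58 and rsad2 and for ifit8, ifit14 and helz2, gbp3 is redder in WT than in mutant libraries, and 2 values of rsad2 and 1 of mxc lie beyond the colour scale.

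How closely the 9 genes followed each other differed. Across the 6 libraries, which share their scaling and for each library its RNA, the Pearson correlation of log2 CPM with the mean of the other 8 was 0.99 for stat1b and dhx58, 0.98 for stat2, 0.97 for isg15, 0.95 for rsad2, 0.91 for mxa and 0.81 for stat1a, and 0.49 for ifih1 and 0.43 for irf7. The 5 other genes of the table whose profile was most like the mean of the 9 were zgc:152791, si:dkey-188i13.9, si:dkey-42i9.7, cmpk2 and lgals17, with correlations from 0.993 to 0.997 over 6 libraries. Of these, cmpk2, a mitochondrial nucleotide kinase gene, lies next to rsad2 in the GRCz12tu annotation and had 2, 2 and 51 counts in WT and 10, 14 and 70 counts in mutant replicates 1 to 3. The galectin gene lgals17 had 0.672, 0.891 and 41.4 CPM across WT and 4.96, 7.57 and 16.8 CPM across mutant replicates 1 to 3. That these genes share the order of the 9 over the libraries follows from how they were picked.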

How the data were processed

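The deposited table gives raw read counts for each gene symbol in 6 liver libraries, which the authors did not normalize. Per the submitters' processing notes, Trimmomatic 0.36, STAR 2.7 and featureCounts 1.5.2 were used with build GRCz11. Strand setting and the treatment of multiply aligned reads are not stated there. The row that names no gene held 0.568% to 1.02% of a library's counts and was left out. Groups and replicate numbers come from the sample titles.

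Differences were tested in R 4.3.3 using edgeR 4.0.16: after filterByExpr and TMM scaling, mutant was compared with WT by the robust quasi-likelihood test. Benjamini-Hochberg adjustment ran over all genes tested, with a threshold of 0.05. The SE is the absolute log2 fold change over the root of F. Log2 CPM used a prior count of 2. The script was tested on simulated data. Alternatives were other scalings and filters, DESeq2 1.42.0, limma-voom (limma 3.58.1), an oocyte-transcript covariate, the replicate number as a block, and libraries left out.

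The genes described and the pathway and marker lists were chosen with earlier results of these data known. Named from each pathway list were up to 3 called genes or, with none called, those with the smallest p and the highest mean CPM. Named as most alike were the 5 genes whose log2 CPM correlated best with the mean profile. Any further gene was picked with its values in view. All 10 symbols matched the RefSeq annotation of GRCz12tu, which was used only for gene order.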

Additional observations from a re-analysis of the deposited data

How the results depend on the processing

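Of the 16 alternatives, 15 called 0 of the interferon-stimulated genes, and leaving out both replicate 3 libraries called 1. DESeq2's Wald test gave no p for 4 of the 9, which are out of its count. The median log2 fold change of the list, -0.57 over 6 libraries, was 1.34 with limma-voom, 0.91 with the replicate block, 0.80 with total counts and 1.62 without both replicate 3 libraries, and ran from -1.10 to 3.03 as each library was left out; the value of 3.03 was without WT replicate 3. Pathway genes called numbered 2 with DESeq2's Wald test, 1 with no filter and 1 with total counts. All genes called, 31 over 6 libraries, numbered 1085 with DESeq2's Wald test, 467 with total counts, 211 with no filter and 54 with the oocyte covariate, and 2 to 77 as each library was left out.

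Signs turned as follows, on the log2 scale, with none of these values past the threshold. With limma-voom they were 1.34 for dhx58, 1.83 for rsad2, 1.84 for stat1b, 0.54 for stat2 and -0.013 for rnasel3. With total counts, which raised the median of all genes to 0.98, they were 0.80 for dhx58, 0.66 for stat1a, 0.27 for stat1b, 1.27 for stat2, 0.85 for b2m and 0.39 for irf2. Without both replicate 3 libraries they were 2.06 for dhx58, 0.23 for irf7, 3.08 for rsad2, 0.00014 for stat1a, 3.53 for stat1b, 1.18 for stat2 and 0.22 for b2m. With the oocyte covariate they were -0.068 for mavs and -0.10 for rnasel3. As each library was left out, dhx58 ran from -1.78 to 3.03, irf7 from -1.71 to 0.16, isg15 from -0.50 to 3.997, mxa from -0.47 to 6.34, rsad2 from -2.88 to 3.82, stat1a from -0.92 to 0.26, stat1b from -1.80 to 4.10 and stat2 from -0.57 to 1.60. Over the same fits b2m ran from -0.82 to 0.55, mavs from -0.17 to 0.17, rnasel3 from -0.39 to 0.51 and scd from -0.95 to 3.56. The causes were not tested.

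With the replicate number as a block, 2 genes were called in all and the signs turned to 0.66 for dhx58, 1.1998 for rsad2, 1.68 for stat1b and 0.54 for stat2, none past the threshold. Deviations of same-numbered libraries correlated at 0.30, -0.21 and 0.32 for numbers 1 to 3. WT replicates 1 and 2 both correlated best with mutant replicate 1, and WT replicate 3 with mutant replicate 3. The labels state no pairing. Being centred within groups of 3 libraries, these correlations cannot settle whether same-numbered libraries were paired. Depth limits dhx58, mxa, mxb, rsad2 and stat1b most, since WT replicates 1 and 2 held few counts of them.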

Other observations

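The interferon-response genes cxcl11.1 and irf1b, chosen with mxc after their values were seen, were high in WT replicate 3 and lower in mutant replicate 3. The chemokine gene cxcl11.1, of a type induced by interferon gamma in mammals, had 1, 0 and 57 counts in WT and 0, 0 and 2 counts in mutant replicates 1 to 3. The transcription factor gene irf1b stood at 1.25, 1.89 and 28.1 CPM across WT and 4.53, 0.905 and 2.55 CPM across mutant replicates 1 to 3 (log2 fold change -1.97 ± 1.29, SE, edgeR adjusted p = 0.444). Within a genotype, the Mx gene mxc varied widely, with 0, 40 and 162 counts in WT and 43, 3 and 365 counts in mutant replicates 1 to 3.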
